A study of Homo sapiens with 6 samples.

Results

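The genes described here are 37 classical interferon response genes, a list of antiviral effectors, RNA sensors, transcription factors and related genes. They were named as a list. For each, the brightest probe set annotated to exactly 1 gene was taken, by its mean log2(value + 16) over 6 arrays. A probe set is the group of short probes on the array that reports 1 transcript region. Of the 37 genes, 36 could be named in this way, among 19775 genes in all; STAT2 was not analysed here. The questions put to them were whether either hairpin came with an interferon response and which of the genes were expressed at rest, here meaning in cells with the scrambled hairpin.

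All samples were total RNA from JJN3, a human multiple myeloma cell line, which is a malignant plasma cell. The cells had been transduced with a virus, spelled levivirus in the series text, that carried either a non-specific scrambled shRNA or an shRNA against CKS1B, the small cofactor of the SKP2 ubiquitin ligase and of cyclin-dependent kinases. RNA was hybridised to Affymetrix U133 Plus 2.0 arrays, with 3 arrays for the scrambled shRNA (A, B and C) and 3 for the CKS1B shRNA (A, B and C). Both groups carried a virus and a hairpin, and no array of untransduced cells was analysed here, so a response common to both hairpins could not be measured by comparing them. The labels give 1 hairpin against CKS1B as far as they say, and do not give the time after transduction. Nor do they say whether arrays with the same hairpin are separate cultures, and p-values then cover just the spread from array to array, which may be technical. Scrambled array B has the word poly added to its title, with no explanation in the labels.

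Type I interferons bind the receptor IFNAR1/IFNAR2 and act through the kinases JAK1 and TYK2 to assemble ISGF3, a transcription factor complex that contains IRF9 and switches on genes carrying an interferon-stimulated response element. Interferon-gamma acts on genes with gamma-activated sites, with IRF1 as a well-known early target. Double-stranded RNA can start the same programme through the sensors RIGI and IFIH1 or the kinase EIF2AK2, which is why hairpin RNA experiments are often checked for these genes.

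Promoter sequence was not part of the rule that named the genes. The list was nevertheless named as classical interferon response genes, for which these elements would be looked for. The shares below therefore describe the list and do not test it. RefSeq promoter windows (GRCh38.p14), reaching from 250 bases before a gene's start to 50 after it, matched 29 of the 36 genes by symbol. A response element was read as GAAANNGAAA or, on the other strand, TTTCNNTTTC, and a gamma-activated site as TTCNNNGAA, which reads the same on both strands. A response element match lay in the window of 21 of the 29 genes (72.4%), against 4.38% of the 27305 genes in the table. With GGAA also allowed for either tetramer, the match lay in 25 of the 29 against 13.9% of all genes. A gamma-activated site match lay in 10 of the 29 (34.5%), against 9.38% of all genes. Genes with several windows were counted once, if any window held the match. The following stretches are shown because they hold the matches of genes discussed below, and they are written 5′ to 3′ on the strand of the gene with the matches in capitals.

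BST2 and ISG15 were bright in scrambled cells and carry overlapping response element matches, in BST2 with a pair of gamma-activated site matches as well.
BST2 (chr19:17405665-17405781, minus strand): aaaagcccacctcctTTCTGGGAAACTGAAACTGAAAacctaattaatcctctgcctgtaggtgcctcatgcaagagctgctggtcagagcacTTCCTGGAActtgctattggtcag
ISG15 (chr1:1013369-1013414, plus strand): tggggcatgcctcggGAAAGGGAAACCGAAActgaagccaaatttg
IFIT3 lay nearer the middle of the array and holds 2 response element matches.
IFIT3 (chr10:89327826-89327899, plus strand): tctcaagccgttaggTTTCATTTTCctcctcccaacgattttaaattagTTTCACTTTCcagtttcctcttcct
IFIT1, IFI44L, IFI27 and MX1 were dim in scrambled cells and hold the same kind of match.
IFIT1 (chr10:89392492-89392544, plus strand): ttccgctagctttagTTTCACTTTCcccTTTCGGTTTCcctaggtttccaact
IFI44L (chr1:78620269-78620399, plus strand): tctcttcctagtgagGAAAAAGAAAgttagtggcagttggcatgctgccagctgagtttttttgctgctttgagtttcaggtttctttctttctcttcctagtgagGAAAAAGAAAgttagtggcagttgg
IFI27 (chr14:94110613-94110665, plus strand): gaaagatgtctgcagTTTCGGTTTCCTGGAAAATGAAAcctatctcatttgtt
MX1 (chr21:41431839-41431884, plus strand): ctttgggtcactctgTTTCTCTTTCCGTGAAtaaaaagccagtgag
IRF1, IRF9 and IFI35 have a gamma-activated site match and no response element match in their windows. With GGAA also allowed, IFI35 has 2 response element matches and IRF1 and IRF9 have 0.
IRF1 (chr5:132490874-132490912, minus strand): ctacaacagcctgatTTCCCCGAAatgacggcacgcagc
IRF9 (chr14:24161187-24161225, plus strand): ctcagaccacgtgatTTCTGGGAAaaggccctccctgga
IFI35 (chr17:43006747-43006785, plus strand): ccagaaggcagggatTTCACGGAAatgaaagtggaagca

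Response element matches were found among bright and dim genes alike. A match was held by 12 of 17 genes whose probe set lay above the array median on all 3 scrambled arrays (70.6%) and by 9 of 12 of the others (75.0%). Counting 1 window for each gene, the 38 response element matches in 21 genes began between 196 and 4 bases before the start site, with a median of 105 bases, and 35 of the 38 lay wholly upstream within 200 bases of it. The response element matches and gamma-activated site matches overlap each other in BST2, MX1, IFI27 and IFITM1. A match is only a run of letters, and nothing about binding was measured.

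**Figure D1:**
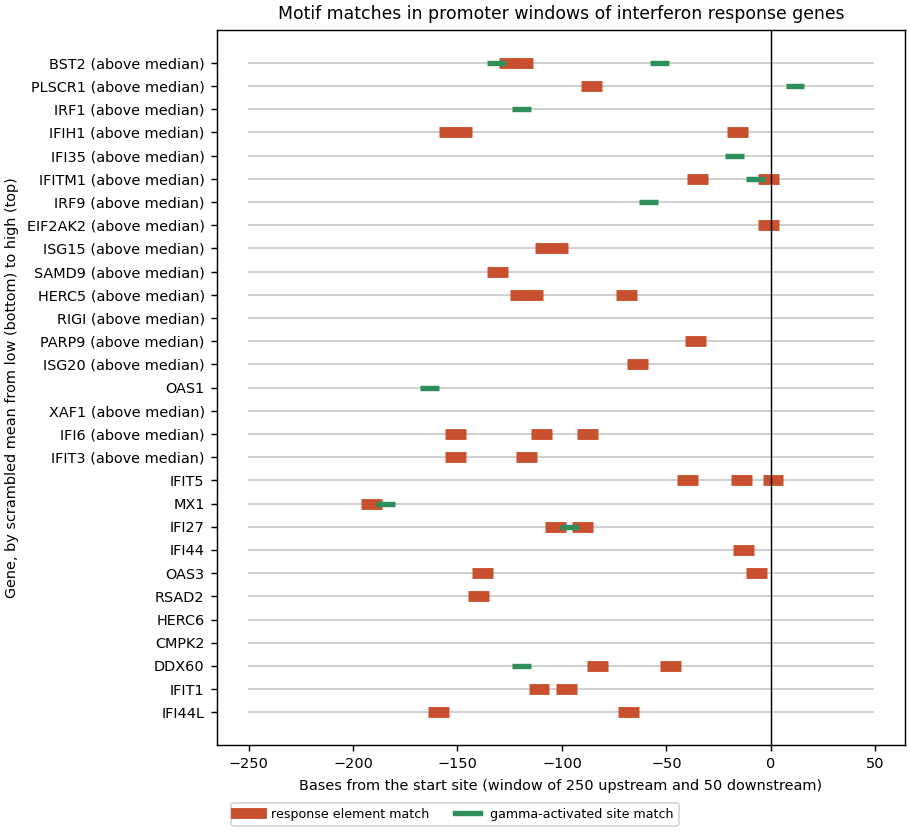
Positions of motif matches in the promoter windows of 29 interferon response genes, in bases from the start site, with genes ordered by their mean value on the scrambled shRNA arrays from low at the bottom to high at the top. Thick orange bars are response element matches, found in 21 genes, and thin green bars are gamma-activated site matches, found in 10; orange bars occur along the whole range of levels.

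The deposited values have no detection calls, so a level was read against the other probe sets of the same array. A value of a probe set depends on its probes, so levels of different genes are not ranked by abundance. On all 3 scrambled arrays, 21 of the 36 genes lay above the array median (58.3%, against 54.2% of all 19775 genes). Above the 70th percentile on all 3 were 13 of the 36, against 39.4% of all genes, and above the 90th percentile 2 of the 36, against 15.5% of all genes. The first 2 shares are near those of the array in general, and the last is below it. For scale, 12 genes of unrelated tissues had scrambled means between 20.4 and 411.1, with a median of 83.2, and 2 of them, SFTPC and CSN2, also lay above the array median on all 3 arrays. Of the 36 genes, 15 had a scrambled mean above the highest of these 12, and the other 21 did not.

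**Figure D2:**
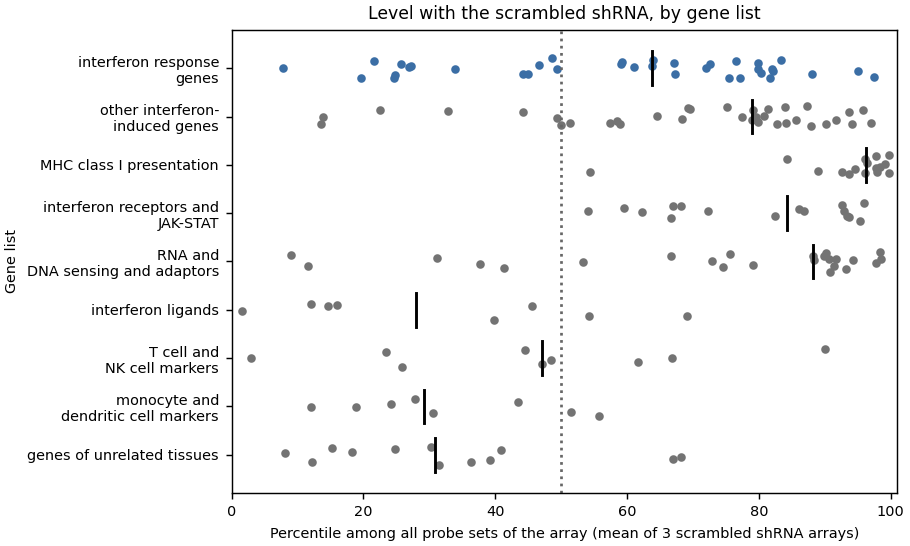
Percentile of each gene's brightest probe set among all probe sets of the array, averaged over the 3 scrambled shRNA arrays, with 1 point per gene and a black bar at the median of each list; the dotted line is the array median and the vertical scatter within a list has no meaning. The 36 interferon response genes spread from below the 10th percentile to above the 90th, while 13 of 16 genes of MHC class I presentation lay above the 90th percentile on all 3 arrays.

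Of 9 genes that restrict virus entry, replication or release, 5 lay above the array median on all 3 scrambled arrays. BST2, or tetherin, which holds budding virus at the cell surface and is a known plasma cell antigen, had scrambled values of 4721, 6412 and 4691, in the order A, B and C used for all values here, and CKS1B shRNA values of 5931, 1021 and 6201. Array B lay below all scrambled arrays while A and C lay within their range. PLSCR1, an interferon-induced phospholipid scramblase, had scrambled values of 3493, 3772 and 2385 and CKS1B shRNA values of 1927, 372 and 2204. These were the 2 genes above the 90th percentile on all 3 scrambled arrays. IFITM1, which blocks virus entry at membranes, had scrambled values of 789, 1091 and 668 and CKS1B shRNA values of 758, 1015 and 615, with overlapping groups.

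The brightest probe sets of 3 sensors of double-stranded RNA lay above the array median at rest. IFIH1, or MDA5, which binds long double-stranded RNA, had scrambled values of 957, 1270 and 554 and CKS1B shRNA values of 923, 482 and 925. RIGI, which binds 5′-triphosphate RNA ends, had 378, 583 and 802 against 392, 413 and 404. EIF2AK2, or PKR, which halts translation when it binds double-stranded RNA, had 850, 1101 and 303 against 557, 623 and 555. In these probe sets the groups overlapped for all 3 sensors, and the wider spread lay within the scrambled group. Those of RIGI and EIF2AK2 carry a suffix for shared sequence. A second EIF2AK2 probe set, without the suffix and picked after its values were seen, was lower on every CKS1B shRNA array. It had 976, 829 and 785 against 488, 472 and 295. For RIGI the level rests on its brightest probe set, since its other 2 were not above the median on all 3 scrambled arrays, at 76.2, 121 and 44.2 and at 217, 198 and 122. Their log2 differences, CKS1B shRNA minus scrambled shRNA, were 1.01 and 0.95 with 6 arrays and 0.17 and 0.06 without CKS1B shRNA array B, against -0.47 and -0.48 for the brightest. DDX60, an RNA helicase, was dim on 5 arrays, at 21.6, 17.2 and 114 in scrambled cells and 42.9 and 75.0 in the CKS1B shRNA samples A and C, and stood at 593 in sample B.

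Transcription factors of the pathway lay above the 70th percentile in all 3 cases measured. IRF1, an early target of interferon-gamma, had scrambled values of 1069, 1901 and 1252 and CKS1B shRNA values of 1032, 2627 and 983. IRF7, the factor that amplifies interferon production, had 419, 399 and 462 against 393, 288 and 922. IRF9, the DNA-binding subunit of ISGF3, had 833, 963 and 665 against 1117, 1306 and 1411, so every CKS1B shRNA array was above every scrambled array.

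In the ISG15 system, ISG15 itself, a ubiquitin-like protein joined to other proteins, had scrambled values of 400, 960 and 868 and CKS1B shRNA values of 467, 232 and 2597. The highest and the lowest of the 6 values were both CKS1B shRNA arrays, C and B. HERC5, its ligase, had 633, 682 and 840 against 884, 300 and 716, with overlap. USP18, the protease that removes ISG15 and damps receptor signalling, was dim at 42.5, 20.1 and 100.5 against 19.2, 190 and 13.3. SAMD9, a restriction factor of poxviruses, had 560, 951 and 646 against 478, 234 and 754, and again overlapped.

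The other 15 of the 36 genes did not lie above the array median on all 3 scrambled arrays, although relatives of some of them, IFIT3, OAS2, OASL and MX2, did. IFIT1, which binds RNA lacking cap methylation, had scrambled values of 26.3, 8.3 and 109 and CKS1B shRNA values of 19.6, 128 and 30.4. IFI44L had 21.6, 5.7 and 26.5 against 10.7, 692 and 12.8, and RSAD2, or viperin, had 27.3, 137 and 26.0 against 31.9, 219 and 32.7. For all 3 genes the highest value was CKS1B shRNA array B, and the other CKS1B shRNA arrays lay within or below the scrambled range. MX1, a GTPase that blocks viral nucleocapsids, had 73.0, 94.5 and 280 against 51.9, 444 and 213. OAS1, which makes the messenger that activates RNase L, had 153, 106 and 598 against 116, 245 and 247. IFI27 had 175, 127 and 143 against 119, 317 and 179. These 3 genes lay below the array median on at least 1 scrambled array, as did IFIT2, whose scrambled values were 37.2, 209 and 181 and whose CKS1B shRNA values were 15.9, 213 and 40.6. IFI6, a small mitochondrial and reticulum protein, was above the median on all 3 scrambled arrays, at 139, 394 and 264, against 147, 585 and 375.

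The 15 genes not above the array median on all 3 scrambled arrays were IFIT1, IFIT2, IFIT5, OAS1, OAS3, MX1, IFI27, IFI44, IFI44L, RSAD2, HERC6, DDX60, USP18, CMPK2 and TRIM22. By role, 4 of 9 effectors that bind or degrade RNA lay above the median on all 3, 3 of 4 sensors, 3 of 3 transcription factors, 3 of 5 genes of the ISG15 system, 5 of 9 restriction factors and 3 of 6 others. A value near background cannot be told from no expression in these files.

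**Figure D3:**
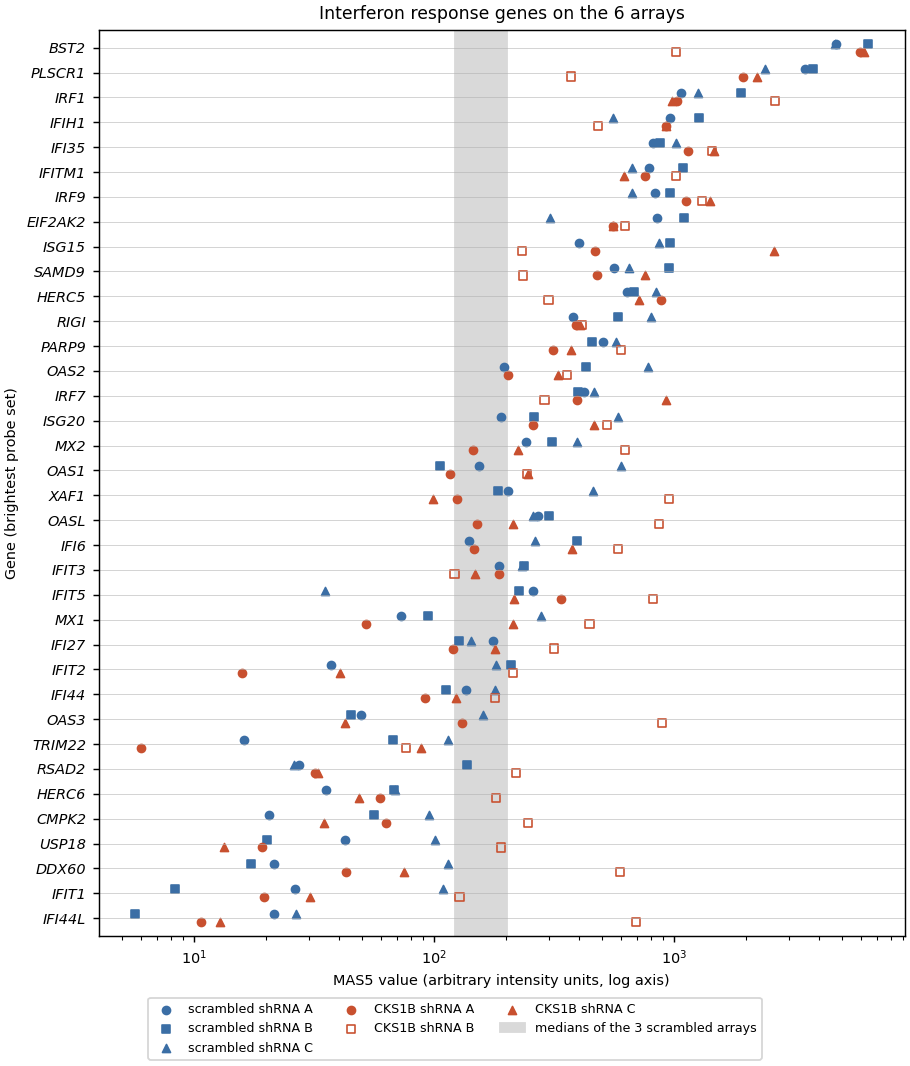
Deposited MAS5 values (log axis) of the 36 interferon response genes on the 6 arrays, ordered by scrambled mean, with scrambled shRNA arrays in blue and CKS1B shRNA arrays in orange and CKS1B shRNA array B as an open square; the grey band spans the medians of the 3 scrambled arrays, 121.8 to 201.6. Many genes on the left of the band have their highest value on CKS1B shRNA array B, as IFI44L does at 692.

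CKS1B shRNA array B stood apart over the whole array and bears on every value of that group. Its correlation with the other arrays over all probe sets except controls was 0.577 to 0.610, against up to 0.958 between other arrays. Its actin 3′ to 5′ ratio, a measure of RNA integrity, was 12.4 against 1.05 to 2.93. Its median was 334, against 117.5 to 201.6 for the others, and its log2 values had an SD of 1.61, with 1.83 to 2.24 on the others. Scrambled array C, which is in both fits, was next, with the median of 201.6 and the SD of 1.83. Its highest correlation with another array was 0.891. Genes with a scrambled mean under 200 had a median of 111.9 on it, against 53.6 and 54.2 on scrambled arrays A and B. CKS1B itself had 8266, 8441 and 7294 on the scrambled arrays and 481, 269 and 828 on the CKS1B shRNA arrays. With 6 arrays its log2 difference was -4.02 ± 0.44 (SE, adjusted p = 0.246 in limma with Benjamini-Hochberg adjustment). Without array B it was -3.63 ± 0.26 (adjusted p = 0.00126 in limma with Benjamini-Hochberg adjustment). The exact two-sided permutation p with 6 arrays was 0.1, the smallest that 3 against 3 allows. Plasma cell markers lay above the median on all 3 scrambled arrays for 8 of 9 genes and monocyte and dendritic cell markers for 0 of 8, while T cell and NK cell markers did so for 3 of 9 and stromal cell markers for 5 of 8.

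On array B nearly all of the dim interferon genes were high, as most dim genes of the array were. Among the 14 genes with a scrambled mean under 200, 13 were above all 3 scrambled arrays on CKS1B shRNA array B. The same held for 71.3% of the 8364 genes of the array in that range. Among the 19 genes with means from 200 to 1000, 7 were above and 6 below all scrambled arrays, where 45.4% and 26.3% of all genes in that range were. Among the 3 genes with a scrambled mean of 1000 or more, BST2 and PLSCR1 were below all 3 scrambled arrays there, as were 70.4% of the 5251 genes in that range, and IRF1 was above them, as were 19.1%. In CKS1B shRNA sample A, 1 of the 14 dim genes was above all scrambled arrays and 6 were below, where 11.2% and 32.3% of all genes in that range were. In sample C, 1 was above and 2 were below, where 19.3% and 25.4% of all genes were. The part of the array's condition in these values was not tested, and the comparison is given with and without it.

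**Figure D4:**
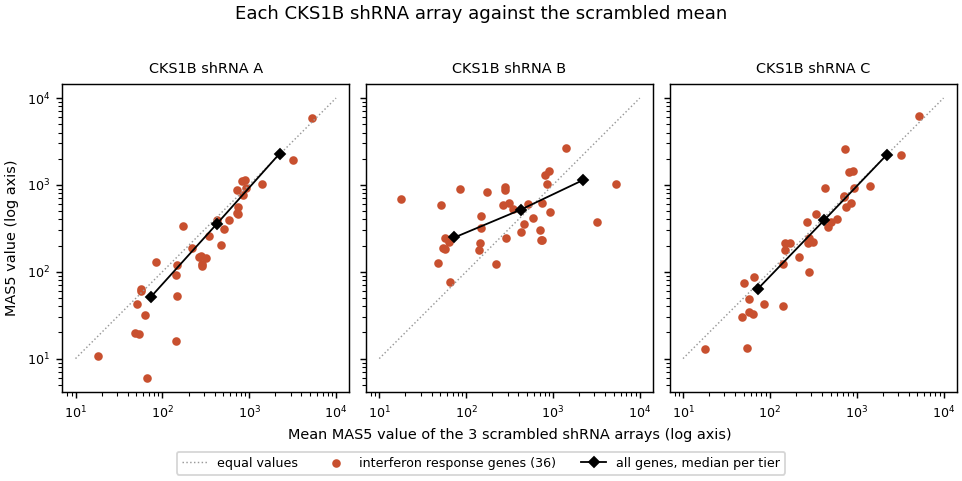
Values of the 36 interferon response genes (orange points) on each CKS1B shRNA array against their mean on the 3 scrambled arrays, both on log axes; the black diamonds join the medians of all genes with scrambled means under 200, from 200 to 1000, and of 1000 or more, and the dotted line marks equal values. On arrays A and C points and diamonds follow the line, while on array B genes under 200 lie above it, as the all-gene median there does (247.9 against medians of 53.6 to 111.9 on the scrambled arrays).

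No interferon response gene passed the test between the hairpins in either direction. The test was limma on log2(value + 16) over all 12663 genes with a mean log2 value at or above the median of all probe sets, with Benjamini-Hochberg adjustment and a threshold of 0.05. Of the 36 genes, 25 were tested and 11 lay below that filter. With 6 arrays, 0 of 25 were called, and 0% of all genes were, and at an unadjusted p under 0.05 there were 0 of the 25 and 373 of all genes; the smallest adjusted p of the 25 was 0.933. Without array B, 0 of 25 were called, against 0.0395% of all genes (5 genes). At an unadjusted p under 0.05 there were then 2 of the 25, PLSCR1 and IRF9, and 1202 of all genes, and the smallest adjusted p was 0.504.

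The median of the signed differences, in which rises and falls cancel, was small on the log2 scale. Single tested genes ranged from -1.42 to 1.44 with 6 arrays and from -1.11 to 0.93 without array B. The median log2 difference, CKS1B shRNA minus scrambled shRNA, over the 25 tested genes was -0.14 with 6 arrays, beside -0.08 over all genes tested, and -0.22 without array B, beside -0.04. Its sign depended on the arrays used, being 0.10 without scrambled array B, 0.00 without scrambled array C and 0.18 without CKS1B shRNA array A. Over all 36 genes the median was -0.07 with 6 arrays and -0.24 without array B. Between the fits with 6 and 5 arrays the sign of the difference changed for 9 of the 25 tested genes and for 14 of the 36.

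The groups' ranges separated for 4 of the 25 tested genes with 6 arrays. IRF9 and IFI35 were higher on every CKS1B shRNA array (2 of 25; 4.94% of all genes tested did so), and PLSCR1 and IFIT3 were lower on every one (2 of 25; 6.41% of all genes tested). None of the 11 untested genes separated, so over the 36 the counts were also 2 and 2, beside 4.33% and 4.69% of all named genes. Without array B, 2 of 25 were higher (13.6% of all genes tested) and 7 of 25 were lower (14.4%), which were PLSCR1, IFIT3, OASL, MX2, IRF1, PARP9 and XAF1. Over the 36, 2 were higher (10.2% of all named genes) and 8 were lower (14.2%), with USP18 added. The lower count was 4 without scrambled array A, without scrambled array C or without CKS1B shRNA array C. The shares of all genes are not given for these settings, so those counts are not read as a result about the list.

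For IRF9 the scrambled values ran from 665 to 963 and the CKS1B shRNA values from 1117 to 1411. Its log2 difference was 0.64 ± 0.30 (SE, n = 3 and 3; adjusted p = 0.933 in limma with Benjamini-Hochberg adjustment) and 0.62 ± 0.27 without array B (n = 3 and 2; adjusted p = 0.511 in the same limma fit). IFI35, a protein that partners with NMI, had scrambled values of 815, 873 and 1022 and CKS1B shRNA values of 1140, 1435 and 1462. All 3 CKS1B shRNA values were above the scrambled ones, with a log2 difference of 0.56 ± 0.30 and, without array B, 0.51 ± 0.25. Neither gene passed the threshold, and with each array centred on its median neither kept separate groups, at log2 differences of 0.41 and 0.33, while with quantile normalization the differences were 0.78 and 0.69. Centring moved the median of all genes tested from -0.08 to -0.31.

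PLSCR1 was lower on every CKS1B shRNA array in both of its brighter probe sets. For the brightest the log2 difference was -1.42 ± 0.67 with 6 arrays and -0.61 ± 0.25 without array B, so leaving out array B moved it by over 1.5 times (adjusted p = 0.933 and 0.504 in limma with Benjamini-Hochberg adjustment). The second probe set of PLSCR1 had scrambled values of 891, 1047 and 858 and CKS1B shRNA values of 411, 175 and 704, with no overlap and log2 differences of -1.28 and -0.77. The remaining probe set of the gene was dim, at 0.9 to 15.2 on the other 5 arrays and 588 on array B. IFIT3, which works in a complex with IFIT1, had scrambled values of 187, 236 and 231 and CKS1B shRNA values of 186, 122 and 148. Its highest CKS1B shRNA value and its lowest scrambled value were 185.8 and 186.9, and its log2 difference was -0.49 ± 0.48 and -0.36 ± 0.43 without array B.

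Most of the largest differences with 6 arrays were smaller without array B. They were those of DDX60 (log2 difference 1.44, and 0.42 without array B), IFIT5 (1.44 and 0.93), PLSCR1, IFI44L (1.32 and -0.23) and OAS3 (1.15 and 0.06). OAS3, another synthetase of the RNase L messenger, had scrambled values of 49.8, 45.0 and 160 and CKS1B shRNA values of 130, 892 and 42.5. IFIT5, an RNA-binding protein, had 258, 225 and 35.2 against 337, 817 and 214, where scrambled array C was the lowest of the 6. Without array B the largest were IFIT2 (-1.65, and -0.84 with 6 arrays), XAF1 (-1.11 and -0.14), USP18 (-0.96 and -0.07), IFIT5 and MX2 (-0.73 and -0.17). The other probe set of IFIT2 did not share its difference, at -0.01 without array B and 0.68 with 6 arrays. XAF1, which antagonises the apoptosis inhibitor XIAP, had 203, 184 and 460 in scrambled cells and 124, 951 and 99.4 in CKS1B shRNA cells, so 2 CKS1B shRNA arrays lay below and array B above all scrambled arrays. MX2, a restriction factor of retroviruses, had 242, 310 and 393 against 145, 621 and 223 in the same pattern. PARP9, which works with the ubiquitin ligase DTX3L, had 504, 456 and 574 against 314, 600 and 372, again with array B above and the others below the scrambled range. None of these genes passed the threshold.

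The intervals show how large a rise these arrays could still hold. Without array B, the upper bound of the 95% interval of the difference was below a 4-fold rise for 23 of the 25 tested genes and below a 2-fold rise for 15 of them. Over all 36 genes it was below 4-fold for 33 and below 2-fold for 18. With 6 arrays it was below 4-fold for 26 of the 36, and for 3 of the 11 genes below the filter. The median SE of a tested gene was 0.50 with 6 arrays and 0.40 without array B on the log2 scale. ISG15 was among the 2 tested genes whose interval passed 4-fold without array B, with a log2 difference of 0.66 ± 0.63 and an upper bound of 4.18-fold, and IFIT5 was the other, with an upper bound of 5.85-fold. Fold changes on the log2(value + 16) scale understate those of dim genes, and with 6 arrays the upper bound reached 17.5-fold for IFI44L.

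**Figure D5:**
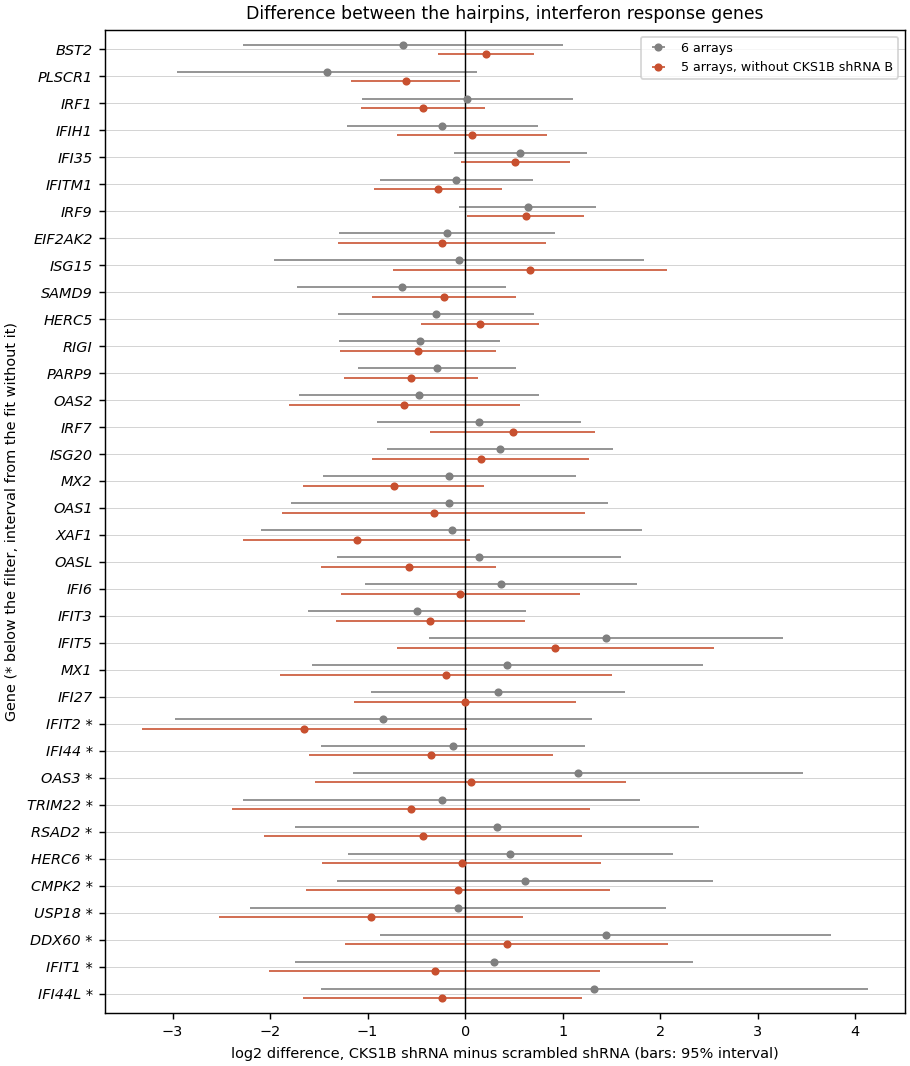
Log2 difference, CKS1B shRNA minus scrambled shRNA, of the 36 interferon response genes with 95% intervals from limma, with 6 arrays in grey and with 5 arrays, leaving out CKS1B shRNA array B, in orange; genes marked * lay below the filter and come from the fit without it. Without array B most points lie within 1 log2 unit of 0, and IFIT2 at -1.65 and XAF1 at -1.11 are the exceptions.

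The rest of the pathway was taken from lists of its parts, and with 6 arrays no gene of any of them was called. Interferon genes themselves were mostly dim. Of 8 ligands, 2 lay above the median on all 3 scrambled arrays, IFNL1 at 281, 173 and 869 and IFNL2 at 184, 141 and 210; their CKS1B shRNA values were 208, 214 and 224 for IFNL1 and 169, 248 and 56.0 for IFNL2. IFNB1, the interferon first made after RNA sensing, had 17.9, 14.7 and 60.8 against 10.4, 43.0 and 21.7, with overlap.

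Receptors and signalling proteins were above the array median throughout. All 16 genes of the receptor and JAK-STAT list lay above the median on the 3 scrambled arrays, 5 of them above the 90th percentile. TYK2, the kinase bound to IFNAR1, had 1683, 2617 and 2937 in scrambled cells and 1974, 362 and 2928 in CKS1B shRNA cells, and STAT3 had 2232, 2813 and 1738 against 1853, 1279 and 1867. PTPN6, a phosphatase that damps JAK signalling, had 374, 259 and 203 against 328, 395 and 640. None of the 16 passed the test without array B either. The smallest adjusted p there, 0.46 in limma with Benjamini-Hochberg adjustment, was that of PTPN11. It had 3444, 3900 and 2579 against 5682, 644 and 5743, with a log2 difference of 0.81 without array B and -0.23 with 6 arrays.

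Among 24 genes of RNA and DNA sensing, 18 lay above the median on all 3 scrambled arrays. STING1, the adaptor of cytosolic DNA sensing, had 377, 428 and 502 against 293, 28.3 and 208, lower on every CKS1B shRNA array (log2 difference -1.63, and -0.77 without array B). AIM2, a DNA sensor of the inflammasome, had 1755, 3015 and 2699 against 1300, 1319 and 1683, and was also lower on each (-0.76 and -0.71). TICAM1, the adaptor of TLR3, was higher on each, at 371, 432 and 239 against 433, 625 and 725. IKBKE and TRIM25 were, like STING1 and AIM2, lower on each. Of the 18 genes of the list that were tested, 1 was higher without overlap and 4 were lower, beside 4.94% and 6.41% of all genes tested. Without array B the counts were 5 and 6, beside 13.6% and 14.4%. None of the 24 was called with or without array B, the smallest adjusted p without it being 0.504 in limma with Benjamini-Hochberg adjustment.

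Of 35 other interferon-induced genes, 25 lay above the median on all 3 scrambled arrays and 0 of the 30 tested were called with or without array B. CXCL10, a chemokine induced by both kinds of interferon, was among the 5 above the 90th percentile, at 1747, 4389 and 3182 against 1819, 1250 and 1784. Scrambled arrays B and C were the highest, and scrambled array A lay below CKS1B shRNA arrays A and C. NMI, which binds IFI35, had 1055, 1252 and 1536 against 771, 483 and 1220, and CCL5, a T cell chemokine, had 43.2, 254 and 263 against 206, 1887 and 464. A response element match lay in a promoter window of 17 of the 26 of these genes that had one (65.4%). IRF8 had 245, 295 and 572 against 127, 2364 and 50.9, with a log2 difference of -1.89 without array B and -0.36 with 6 arrays. Its adjusted p without array B, 0.46 in limma with Benjamini-Hochberg adjustment, was the smallest of the list. In that fit 1 of the 30 tested was higher without overlap and 4 were lower, beside 13.6% and 14.4% of all genes tested.

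MHC class I genes, which interferons also raise, were bright at rest, with 13 of 16 above the 90th percentile on all 3 scrambled arrays. TAP1, a peptide transporter subunit, had 2792, 2650 and 3517 in scrambled cells and 3713, 5259 and 6821 in CKS1B shRNA cells, higher on each (log2 difference 0.78, and 0.76 without array B). TAP2, its partner, had 2966, 2614 and 2138 against 2191, 860 and 1833, with overlap, and ERAP2, which trims peptides, had 195, 287 and 120 against 400, 377 and 256. HLA-B, HLA-C and HLA-F were higher on every CKS1B shRNA array, and TAPBP and PSMB9 were lower on every one. With TAP1, 4 of the 16 were higher without overlap and 2 lower, beside 4.94% and 6.41% of all genes tested. The probe sets of all 4 carry a suffix for shared sequence. Whether HLA-B, HLA-C and HLA-F report separate signals was not tested, so they may not count as separate genes here. Without array B the counts were 6 and 2, beside 13.6% and 14.4%. The median log2 difference of the 16 was -0.34 with 6 arrays and 0.28 without array B, and none was called in either fit. Small RNA processing genes, which hairpins use, all lay above the median on the scrambled arrays (8 of 8), and none was called. DROSHA, which cuts primary microRNAs, had 3544, 3953 and 3135 against 3081, 867 and 2527, XPO5, the exporter of hairpin precursors, had 3071, 2420 and 2647 against 2640, 944 and 2065, and AGO4 had 437, 485 and 559 against 570, 754 and 663.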

How the data were processed

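Total RNA of JJN3 cells was measured on 6 Affymetrix U133 Plus 2.0 arrays, grouped by the labels into 3 with a scrambled shRNA and 3 with a CKS1B shRNA. Each array has 1 linear intensity per probe set, as deposited by the authors, and the submitters' processing notes name MAS5, with version and settings not given in the sources used here. On every array the 2% trimmed mean of the deposited intensities was 500 to the nearest unit, a scaling that leaves the width of an array's distribution as it was. The number of arrays limits the precision.

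Of 54675 probe sets, 62 controls were left out; 41091 named 1 gene, 1801 several and 11721 none here, by the platform annotation with symbols updated through RefSeq (GRCh38.p14). Values were turned into log2(value + 16), the brightest probe set per gene was kept, and genes below the median mean log2 value were not tested. The comparison used limma 3.58.1 under R 4.3.3 (lmFit, then eBayes with trend, Benjamini-Hochberg over all genes tested), with and without CKS1B shRNA array B; for genes below the filter, values come from a fit without it. The script was tested on simulated data. Python 3.11.15 with matplotlib 3.10.9 drew the figures.

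Values on every array are given for the 10 genes with the highest scrambled means, a core set of interferon genes, genes whose groups do not overlap, the 5 of largest absolute difference in each fit and, per pathway list, the 3 of smallest p; other genes named were chosen after their values were seen. The interferon response genes and the lists were chosen with earlier results of these data known. Alternatives covered the pseudocount, filter, normalization, replicate block, eBayes trend, array weights, probe set choice and leaving out arrays.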

Additional observations from a re-analysis of the deposited data

How the results depend on the processing

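No interferon response gene was called under any of 21 alternatives to the main fit (lowest adjusted p 0.151, limma with Benjamini-Hochberg adjustment), and 14 of 416 differences recomputed for the 25 tested genes moved by more than the replicate spread, with 0 to 9 signs changed per alternative; 90 more came from 4 settings that cannot change a difference (no filter, the higher filter, no trend and the block with 6 arrays). The labels do not say that a letter marks a shared culture or day, so the letters were not taken as pairs. Deviations from the group means correlated at 0.402 between the arrays of letter A, -0.0809 for B and -0.0796 for C. With 3 arrays a group, these values cannot show whether the letters are pairs. With the letter as a replicate block 0 genes of the list were called, and the differences with 6 arrays cannot change by design (median -0.14). The count of genes lower without overlap was 1 with the filter at the 70th percentile, 7 without both arrays of letter B, 2 to 7 leaving out 1 array, and, chosen after seeing the data and without CKS1B shRNA array B, 5 with quantile normalization and 8 with no filter. The count higher without overlap was 0 with arrays centred on the median and 1 with probe sets lacking a suffix for shared sequence. The latter setting has no value for CKS1B, whose probe set carries one. For most of these counts the share of all genes is not given. That share depends on the arrays used, being 6.41% lower with 6 arrays and 14.4% without CKS1B shRNA array B. The filter also changed how many of the genes were tested, 15 at the 70th percentile and 36 with no filter. The counts are therefore not read as changes in the interferon response genes. The log2 difference of CKS1B passed the threshold at -3.80 with array weights, at -3.59 without both letter B arrays and, without CKS1B shRNA array B, at -3.69 with quantile normalization, -3.63 with no filter and -3.59 with a replicate block; leaving out 1 array it ranged from -4.41 to -3.63. Genes expressed at rest numbered 13 at the 70th percentile. Except where fewer genes or arrays were used, the cause of these changes was not tested. Dim probe sets near background limit what 3 arrays a group can show.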

Other observations

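Of the 36 interferon response genes, 19 had more than 1 probe set, and their 25 other probe sets had the same sign of difference as the brightest in 12 cases with 6 arrays and 17 without CKS1B shRNA array B. Of the 25, 2 were higher on every CKS1B shRNA array and 3 lower on every one, beside 4.25% and 3.44% of the 21316 such other probe sets of all genes. They were singled out after their values were seen, and no test was made of them; the PLSCR1 one is described above. A second probe set of EIF2AK2 had scrambled values of 976, 829 and 785 and CKS1B shRNA values of 488, 472 and 295, with no overlap and a log2 difference of -1.05 (-1.15 without array B), where the brightest probe set, by its mean over 6 arrays on the log2 scale, had overlapping groups. A second probe set of OASL, a relative of the OAS enzymes without their activity, had 245, 273 and 550 against 98.9, 97.3 and 140, also with no overlap (log2 difference -1.47, and -1.39 without array B). The brightest OASL probe set had 272, 302 and 257 against 151, 865 and 213, with overlap from array B. Of those that were higher, a second probe set of IFIT5 had 109.9, 48.9 and 92.9 in scrambled cells and 174, 210.2 and 233 in CKS1B shRNA cells (log2 difference 1.20, and 1.18 without array B). A second probe set of OAS1 had 51.3, 10.4 and 57.6 against 104, 126 and 88.0 (1.26, and 1.14 without array B), where its brightest probe set had overlapping groups and a difference of -0.16. Neither was above the array median on all 3 scrambled arrays.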
